A study of Homo sapiens with 2 samples.

Results

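Regions at nuclear tRNA genes were taken from ATAC-seq peak lists of WIBR3, an established line of human embryonic stem cells. ATAC-seq cuts and tags DNA with a transposase wherever chromatin is open, so read density marks accessible sites. The list of primed cells, the usual culture state of human embryonic stem cells, came from 1 library, and so did the list of hTBLCs. The series title speaks of capturing totipotency by repressing the spliceosome, and the labels give for hTBLCs neither the agent nor its dose or duration. Both libraries came from the same line, both are labelled hESC, and 50000 living cells were collected for each. Within each list overlapping peaks were merged, and a merged region on chromosomes 1 to 22 or X was a member when it lay within 500 bp of a gene of biotype tRNA in the RefSeq annotation of hg38. This gave 346 of 242009 regions in primed and 323 of 250859 regions in hTBLC, at 429 nuclear tRNA genes.

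Transfer RNAs carry amino acids to the ribosome and read codons through their anticodon. Their genes are short and are transcribed by RNA polymerase III from promoter elements inside the gene, called the A box and the B box, which the factor TFIIIC binds before TFIIIB places the polymerase just upstream. Human tRNA genes exist in many copies, many of them in clusters, and a gene can be silent in a given cell while a copy of the same sequence elsewhere is active. In the gene symbols used here, TRC-GCA13-1 stands for a cysteine tRNA (C) with the anticodon GCA, sequence family 13 and copy 1, and genes that share the family number are named as copies of the same mature sequence.

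The reference sequences used here hold no tRNA gene as an entry of its own. Still, with a single chromosome left out of the count, 14 of the 429 genes lie wholly inside a RefSeq promoter window. Such a window spans 250 bases before to 50 bases after the start of a neighbouring gene. All 14 hold the letters of the B box, searched as GTTCNANNC on both strands of the tRNA gene, beginning at its position 51 to 74. The B box is an element of tRNA genes, so finding it in each was no test. Over all 35116 promoter windows, searched along their whole 300 bases and including those with a tRNA gene, 7.48% had the letters. That share is not a like comparison, since a tRNA gene is shorter than a window. Of the 14 genes, 13 were open in both libraries, meaning that a region lay within 500 bp in each list. The 6 windows below, from RefSeq (GRCh38.p14), are shown because they hold the same tRNA gene in different surroundings or a gene whose signal differed between the libraries. The window of TRN-GTT6-1, whose signal also differed, is not printed. Each of the 6 is printed 5′ to 3′ on the strand of the neighbouring gene, with the tRNA gene in capitals. By the strand of the B box letters, both TRP-TGG3 genes read in the printed direction and the other 4 read against it. The windows are chr14:20683927-20684226 (plus strand, upstream of ANG) for TRP-TGG3-2, chr16:3187954-3188253 (plus strand, OR1F1) for TRP-TGG3-5, chr1:148281174-148281473 (minus strand, LINC01731) for TRH-GTG1-3, chr15:45201067-45201366 (minus strand, SHF) for TRH-GTG1-9, chr13:94549492-94549791 (plus strand, LOC124903191) for TRF-GAA1-5 and chr6:27668524-27668823 (minus strand, LOC124901292) for TRI-AAT8-1.
TRP-TGG3-2: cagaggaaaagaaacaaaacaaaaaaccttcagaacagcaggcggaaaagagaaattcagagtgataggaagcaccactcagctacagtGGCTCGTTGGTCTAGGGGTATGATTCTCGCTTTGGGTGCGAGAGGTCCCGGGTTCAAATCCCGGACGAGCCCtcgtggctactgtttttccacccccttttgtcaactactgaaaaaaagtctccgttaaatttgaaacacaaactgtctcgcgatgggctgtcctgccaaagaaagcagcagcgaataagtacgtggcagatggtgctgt
TRP-TGG3-5: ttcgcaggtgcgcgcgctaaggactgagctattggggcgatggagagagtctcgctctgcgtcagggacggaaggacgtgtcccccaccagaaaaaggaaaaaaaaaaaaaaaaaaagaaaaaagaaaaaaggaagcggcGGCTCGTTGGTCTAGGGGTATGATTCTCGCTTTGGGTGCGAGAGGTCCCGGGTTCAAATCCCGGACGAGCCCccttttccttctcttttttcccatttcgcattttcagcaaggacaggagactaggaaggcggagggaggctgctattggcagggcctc
TRH-GTG1-3: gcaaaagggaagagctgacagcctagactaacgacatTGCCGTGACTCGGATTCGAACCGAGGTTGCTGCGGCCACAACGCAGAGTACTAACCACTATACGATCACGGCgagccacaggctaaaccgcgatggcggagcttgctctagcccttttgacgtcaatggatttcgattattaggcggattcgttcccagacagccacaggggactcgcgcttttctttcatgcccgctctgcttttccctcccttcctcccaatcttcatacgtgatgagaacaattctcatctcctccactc
TRH-GTG1-9: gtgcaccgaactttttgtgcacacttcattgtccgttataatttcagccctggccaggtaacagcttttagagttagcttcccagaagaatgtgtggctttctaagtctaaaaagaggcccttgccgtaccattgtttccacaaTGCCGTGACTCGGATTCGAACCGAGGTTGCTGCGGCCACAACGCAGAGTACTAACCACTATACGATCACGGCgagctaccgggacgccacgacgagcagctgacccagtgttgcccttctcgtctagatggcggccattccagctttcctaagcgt
TRF-GAA1-5: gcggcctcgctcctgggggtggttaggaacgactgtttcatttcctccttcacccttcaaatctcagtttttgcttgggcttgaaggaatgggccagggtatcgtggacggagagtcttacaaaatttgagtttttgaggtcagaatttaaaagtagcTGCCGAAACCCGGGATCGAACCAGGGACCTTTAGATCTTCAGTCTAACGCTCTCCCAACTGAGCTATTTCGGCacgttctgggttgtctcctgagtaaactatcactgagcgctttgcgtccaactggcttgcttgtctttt
TRI-AAT8-1: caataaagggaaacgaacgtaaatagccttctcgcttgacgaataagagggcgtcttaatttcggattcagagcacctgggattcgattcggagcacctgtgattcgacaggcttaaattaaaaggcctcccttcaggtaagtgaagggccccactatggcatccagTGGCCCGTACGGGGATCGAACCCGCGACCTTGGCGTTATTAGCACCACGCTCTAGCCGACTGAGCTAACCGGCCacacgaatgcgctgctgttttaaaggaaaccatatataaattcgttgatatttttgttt

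The proline genes TRP-TGG3-2 and TRP-TGG3-5 are identical over all 72 bases, while only 23 of 89 bases upstream and 22 of 88 downstream are the same. TRP-TGG3-2, 90 bp from an end of the ribonuclease gene ANG, was open in both libraries. The pileup, the number of reads or fragments stacked at the highest summit within 500 bp, was 43 in primed and 58 in hTBLC, although the primed summit lay 407 bp from the gene and the hTBLC summit inside it. TRP-TGG3-5, 39 bp from an end of the olfactory receptor gene OR1F1, was open in neither, and the nearest regions were 1079 bp and 712 bp away. The histidine genes TRH-GTG1-3 and TRH-GTG1-9 are likewise identical over 72 bases, with 26 of 84 upstream and 15 of 37 downstream bases the same. Both were open in both libraries, the pileup at TRH-GTG1-3 being 15 in primed against 17 in hTBLC, and at TRH-GTG1-9 59 against 69. At TRH-GTG1-3 the primed summit lay 370 bp from the gene and the hTBLC summit inside it. At TRH-GTG1-9 the summits of both libraries lay inside the gene. So genes with the same B box letters differed, within 1 library, in the signal found within 500 bp. How reads that fit several such copies were placed is not given in the sources used here, and its part in these values was not tested.

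The lists end at different thresholds, with a lowest −log10 p of 2.0 in primed and 2.83 in hTBLC, and ranks without a line number 252 and 327, where a region counts as absent. Read totals were not analysed here. The ratio of the lowest local backgrounds, 1.96 in hTBLC to 1.79 in primed, was 1.09 and served as relative depth, by which every ratio of hTBLC to primed pileups was divided. A single library per state leaves no replicate spread to test against. The 95% intervals for single pileups (Poisson), ratios (binomial) and shares (Wilson) cover counting error only. Intervals of medians come instead from the ranked values of the genes or summit pairs. They give the precision of a median over the genes in these libraries, not the spread among genes, and genes are not replicates of a state. Of 10 pluripotent stem cell markers, 7 had a region within 1 kb of a gene end in both lists, among them SOX2, NANOG and SALL4. POU5F1 had one only in primed (pileup 37), ZFP42 only in hTBLC (pileup 10) and LIN28B in neither. Of 5 feeder or fibroblast markers, COL1A1 and COL1A2 were open in both, COL3A1 and POSTN in hTBLC only (pileup 14 each) and THY1 in neither. Where a ratio could be had, the stem cell markers were lower in hTBLC, with a median ratio of 0.63 over 6 genes and 4 intervals below 1, at TDGF1 (83 and 17, ratio 0.19, 0.10 to 0.32), NANOG (0.55), L1TD1 (0.59) and SOX2 (0.67). LIN28A, open in both but without a ratio, had a pileup of 47 in primed and 91 in hTBLC. The part of these markers in the results was not tested.

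Most nuclear tRNA genes were open in both states. Of the 429 genes, 316 were open in both libraries (73.7%, 69.3 to 77.6), 25 only in primed (5.8%, 4.0 to 8.5), 6 only in hTBLC (1.4%, 0.6 to 3.0) and 82 in neither (19.1%, 15.7 to 23.1). Thus 341 genes (79.5%) were open in primed and 322 (75.1%) in hTBLC. Most genes open in neither lay well outside the reach of any region, since the nearest primed region was a median of 4982 bp away (quartiles 1889 and 12966) and the nearest hTBLC region 4936 bp (2050 and 14768). Counted as regions, 36 of 346 primed members (10.4%, 7.61 to 14.1) and 17 of 323 hTBLC members (5.26%, 3.31 to 8.27) had no overlapping region in the other list. Over all regions these shares were 37.3% in primed and 39.2% in hTBLC, but weak regions are alone more often. Among regions of pileup within the quartiles of the tRNA regions, the shares were 13.4% of all primed and 10.6% of all hTBLC regions, against 7 of 173 (4.05%) and 6 of 163 (3.68%) of the tRNA regions.

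Regions at tRNA genes were stronger and wider than most. Their median pileup was 45 in primed and 49 in hTBLC, where all regions had medians of 17 and 16. The median tRNA region stood at percentile 83.2 of the primed and 86.3 of the hTBLC regions by pileup, and was 636 bp wide in primed and 680 bp in hTBLC, against 330 bp and 324 bp for all regions. The signal was centred near the gene: the median distance from the summit to the gene was 54 bp in primed and 65 bp in hTBLC, with the summit inside the gene at 85 of 336 genes in primed and 68 of 313 in hTBLC, and within 150 bp at 231 and 215. Another 5 genes in primed and 9 in hTBLC were open with no summit inside the window, and these have no pileup here. The strand of most genes is not in the table used, so upstream and downstream summits were not separated.

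**Figure D1:**
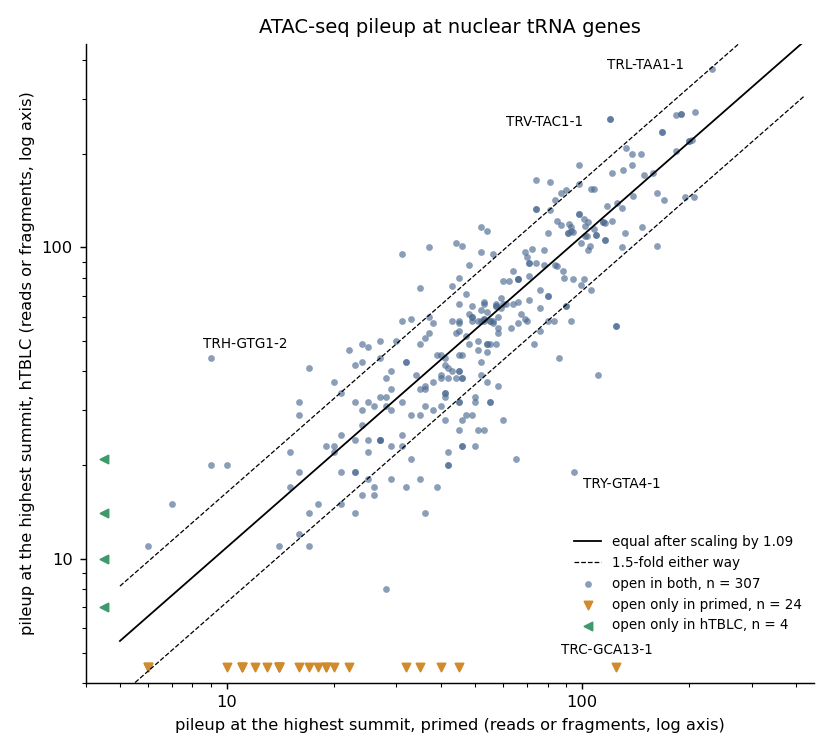
Pileup at the highest summit within 500 bp of each nuclear tRNA gene in primed (x axis) and hTBLC (y axis), both on log axes. Circles are the 307 genes with a summit in both libraries, and triangles at the margins are 24 genes open only in primed and 4 only in hTBLC. The solid line marks equal signal after scaling by 1.09 and dashed lines 1.5-fold either way. Most genes lie between the dashed lines, TRY-GTA4-1 lies far below and TRH-GTG1-2 far above.

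The level at genes open in both libraries was close to equal on the whole. At the 307 genes with a summit in both, the median log2 ratio of hTBLC to primed was −0.03 (interval −0.08 to 0.04), with quartiles of −0.39 and 0.28 and a range of −2.45 to 2.16. All 139523 regions that matched 1 to 1 between the lists had a median of −0.13 and wider quartiles of −0.63 and 0.36. Without scaling, or scaled to the median of all matched regions, every log2 ratio is higher by 0.13, which puts the tRNA median at 0.10 and that of all regions at 0. Relative to all matched regions the tRNA median was thus 0.10 higher under each scaling.

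A ratio of at least 1.5 was found at 40 of the 307 genes (13.0%) and a ratio of at most 1/1.5 at 52 (16.9%). Of all matched regions 16.9% were higher in hTBLC by this rule and 26.8% lower, and of matched regions with pileups within the quartiles of the tRNA genes 15.1% were higher and 27.4% lower. Both shares at tRNA genes were therefore below those of matched regions, the lower-in-hTBLC share by more. They were not below those of protein-coding gene ends scored by the same window. Of 13943 distinct summit pairs at such ends, 10.4% were higher and 14.7% lower. For tRNA genes, with shared summits counted once, the shares were 13.3% and 16.4%. The balance between the directions depends on scaling: 43.5% of the genes past 1.5-fold were higher in hTBLC as scaled here, and 56.3% (49 higher, 38 lower) without scaling. The binomial interval lay above 1 at 44 genes, below 1 at 47, and included 1 at 216. Since neighbouring genes can share summits, the 307 genes rest on 286 distinct summit pairs. At 268 of the 307 genes (87.3%) the summits of the libraries lay within 150 bp of each other.

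The ratio varied with the strength of the site. At tRNA genes with a mean pileup from 20 to below 50 the median log2 ratio was −0.23 (n = 121), against −0.19 for all matched regions of that strength. From 50 to below 100 it was 0.03 (n = 98) against −0.13, and from 100 to below 200 it was 0.11 (n = 62) against 0.06. At the 8 genes with a mean of 200 or more it was 0.32 against 0.17. Below 20 the median was −0.33 over 18 tRNA genes, with an interval of −0.61 to 0.75, and −0.13 over all regions. From 20 upward the median thus rose with strength among tRNA genes and among all regions, while the weakest of all regions did not have the lowest ratios.

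The strongest tRNA gene in both libraries was the leucine gene TRL-TAA1-1 on chromosome 6 (144216547 to 144216629), which stands outside any cluster. Primed cells had a pileup of 232 there (203.1 to 263.9) and hTBLCs 375 (338.0 to 414.9), which gives 1.48 (1.25 to 1.75) after scaling, and the summits lay 6 bp apart. The arginine gene TRR-ACG1-3 on chromosome 14, 325 bp from a protein-coding gene end, followed with 208 and 272 (ratio 1.20, 0.99 to 1.44). The aspartate gene TRD-GTC2-8 and the tyrosine gene TRY-GTA2-1 were nearly equal between the states, with 203 in primed against 222 in hTBLC and 199 against 220, for ratios of 1.0 (0.82 to 1.22) and 1.01 (0.83 to 1.23). These 2 were among the 5 strongest only in primed, and so was the glutamate gene TRE-TTC3-1, with 206 there and 145 in hTBLC (ratio 0.64, 0.52 to 0.80). In hTBLC the valine gene TRV-TAC1-1, the aspartate gene TRD-GTC2-10 and the threonine gene TRT-AGT1-3 stood among the 5 strongest instead, with 258, 269 and 266 against 120, 189 and 183 in primed. Among these strongest genes, the summits lay furthest from the gene at TRD-GTC2-8 (366 bp in primed, 340 bp in hTBLC) and TRD-GTC2-10 (380 and 402 bp). TRY-GTA2-1 lies 418 bp from a protein-coding gene end.

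The highest ratio belonged to the histidine gene TRH-GTG1-2 on chromosome 1 (147073225 to 147073296), where primed had a pileup of 9 (4.1 to 17.1) and hTBLC 44 (32.0 to 59.1), a 4.47-fold ratio (2.15 to 10.4). Its summits lay 365 and 374 bp from the gene, and the primed region did not reach the gene itself, ending 169 bp from it. The glycine gene TRG-TCC2-1, also on chromosome 1 (146037061 to 146037132), had 31 in primed and 95 in hTBLC at the same summit position (ratio 2.80, 1.85 to 4.35). The arginine gene TRR-TCT4-1 had 37 and 100 (ratio 2.47, 1.68 to 3.71), again at the same position in both libraries, but 370 bp from the gene. Next came the threonine genes TRT-CGT3-1 (17 and 41) and TRT-CGT2-1 (74 and 165) and the lysine genes TRK-TTT5-1 (44 and 103), TRK-CTT2-4 (52 and 116) and TRK-CTT3-1 (46 and 101), with ratios from 2.01 to 2.21. Of these 8 genes, 3 carry lysine, and they lie on 3 chromosomes, while lysine has 27 of all 429 genes. Of the 19 distinct summit pairs of lysine, 5 had a ratio of at least 1.5 and 5 of at most 1/1.5.

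The lowest ratio belonged to the tyrosine gene TRY-GTA4-1 on chromosome 14 (20657464 to 20657557), where primed had a pileup of 95 (76.9 to 116.1) and hTBLC 19 (11.4 to 29.7), which gives 0.18 (0.11 to 0.30) at summits 7 bp apart. These summits lay 175 and 182 bp from the gene, and the hTBLC region did not reach the gene itself, lying 88 bp from it. The alanine gene TRA-TGC6-1 had 28 and 8 (ratio 0.26, 0.10 to 0.59), and the serine gene TRS-GCT1-1 had 65 and 21 (ratio 0.30, 0.17 to 0.49). The cysteine gene TRC-GCA9-3 had 111 and 39 (ratio 0.32, 0.22 to 0.47). TRR-ACG2-2 for arginine (36 and 14), the provisional isoleucine gene TRNAI-AAU (39 and 17), TRV-CAC1-4 for valine (124 and 56) and TRP-AGG2-8 for proline (50 and 23) followed, with ratios from 0.36 to 0.42. TRV-CAC1-4 shares its summits with the leucine gene TRL-AAG1-3, which lies closer to them. The primed and hTBLC summits lay 17 and 93 bp from TRL-AAG1-3, against 305 and 229 bp from TRV-CAC1-4. The 4 lowest pileups among these in hTBLC, from 8 to 19, are still regions of the deposited list, so these genes were weaker there but not closed.

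Genes open in 1 library were mostly weak sites, with 1 exception. The 24 primed-only genes with a summit in the window had a median pileup of 15 (quartiles 11.8 and 20.5), against 52 in primed at genes open in both. The exception was the cysteine gene TRC-GCA13-1 on chromosome 7 (149355675 to 149355746), with a primed pileup of 124 (103.1 to 147.8), a deposited fold enrichment of 16.8, and no hTBLC region within 33445 bp. The next were TRP-TGG3-4 for proline (pileup 45, 32.8 to 60.2), TRV-AAC5-1 for valine (40), TRR-ACG2-4 for arginine (35) and TRG-GCC2-6 for glycine (32), whose nearest hTBLC regions were 877, 1563, 1307 and 3821 bp away. TRA-AGC7-1 for alanine (22), TRN-GTT27-1 and TRN-GTT10-1 for asparagine (20 and 19), TRC-GCA2-2 for cysteine (19) and TRV-CAC1-7 for valine (18) complete the 10 strongest. The hTBLC list has ranks without a line, so for a single gene such as TRC-GCA13-1 an absent line cannot be told apart from an absent region.

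The 6 genes open only in hTBLC had a weak summit or none in the window. TRV-AAC1-2 for valine had a pileup of 21 (13.0 to 32.1), TRG-GCC1-1 and TRG-GCC3-1 for glycine had 14 and 10, and TRK-CTT6-1 for lysine had 7 (2.8 to 14.4). TRX-CAT1-2 and TRR-TCT5-1 had a region in the window but no summit. For TRX-CAT1-2 the call turned on the window: the hTBLC region began 498 bp away and the primed region 503 bp. The imbalance of 25 against 6 depends on the threshold. It was 28 against 12 with a −log10 q of at least 5, 36 against 19 with at least 10, and turned to 23 against 44 among the 50000 strongest regions of each list.

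**Figure D2:**
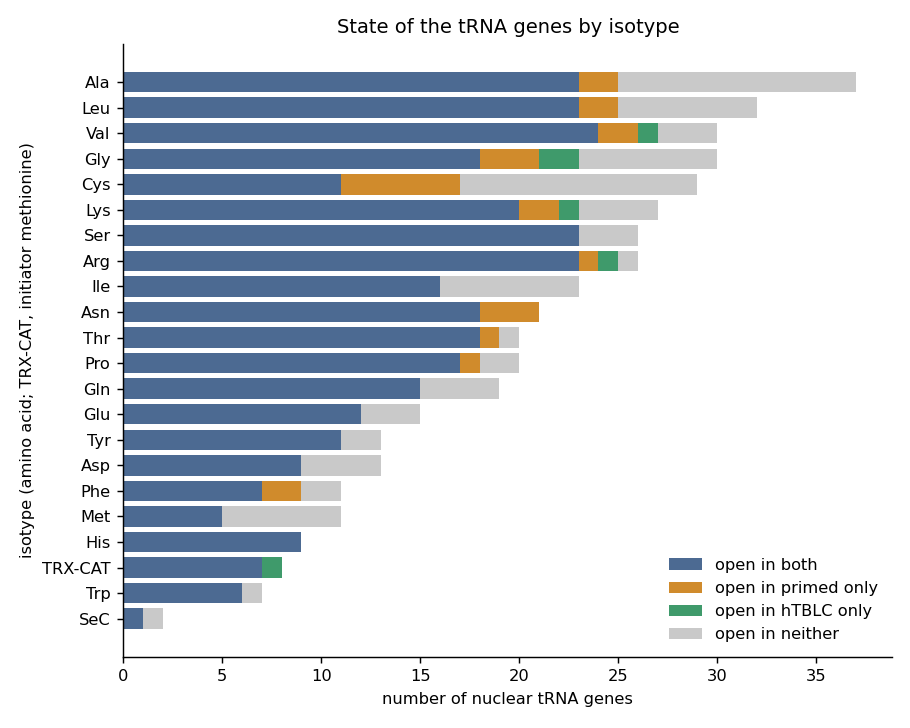
Number of nuclear tRNA genes per isotype (y axis, the amino acid carried, with TRX-CAT for initiator methionine and SeC for selenocysteine), split by state. Bars count genes open in both libraries, only in primed, only in hTBLC or in neither. Cysteine has 6 genes open only in primed and 12 in neither, and all 9 histidine genes are open in both.

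By amino acid, every isotype had genes open in both libraries. Of 49 combinations of isotype and anticodon, 47 had at least 1 gene open in both, and in 14 every gene was. The exceptions were the 3 genes for isoleucine with the anticodon GAT, on chromosome X, and the only gene for tyrosine with ATA, all open in neither. The 9 histidine genes, the 5 isoleucine genes with TAT, the 6 threonine genes with TGT and the 8 serine genes with GCT were open in both throughout. All 21 asparagine genes were open in primed, and 18 of them in hTBLC.

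Cysteine had the lowest open share of all isotypes in hTBLC, though not in primed. Of its 29 genes, 17 were open in primed and 11 in hTBLC, with 6 only in primed, none only in hTBLC and 12 in neither. Cysteine thus held 6 of the 25 primed-only genes and 29 of all 429 genes. Alanine had 12 of 37 genes open in neither, all 12 with the anticodon AGC, while its 8 TGC and 4 CGC genes were open in both. For elongator methionine, which inserts methionine inside proteins, 5 of 11 genes were open in both and 6 in neither. Initiator methionine, which starts every protein and is named TRX-CAT in the table, differed: 7 of its 8 genes were open in both and 1 only in hTBLC. The highest ratio, and the strongest hTBLC signal, was at TRX-CAT1-1 on chromosome 1, with a pileup of 81 in primed and 162 in hTBLC (ratio 1.83, 1.39 to 2.42). Its summits lay 188 bp from the gene in primed and 160 bp in hTBLC. TRX-CAT1-1 is 257 bp from a protein-coding gene end, so its region cannot be told apart from one of that gene. The other 6 with a ratio ranged from 0.80 at TRX-CAT1-4 (25 and 22) to 1.31 at TRX-CAT1-5 (37 and 53), and the interval included 1 at each. Of the selenocysteine genes, whose tRNA reads a stop codon, TRU-TCA1-1 had 58 in primed and 55 in hTBLC (ratio 0.87, 0.59 to 1.28) and TRU-TCA2-1 was open in neither.

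**Figure D3:**
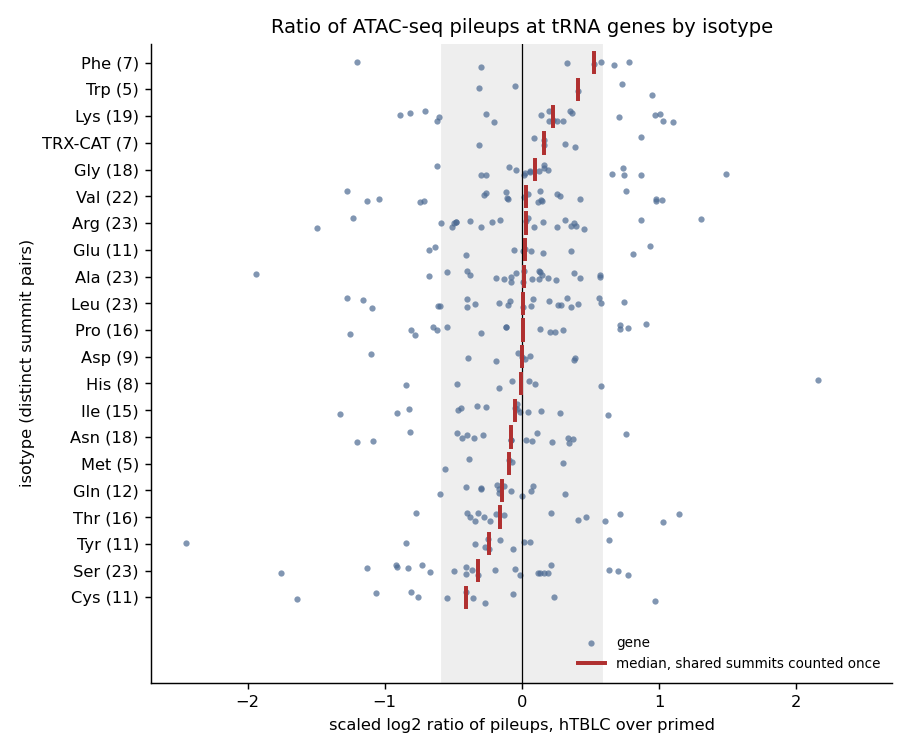
Scaled log2 ratio of pileups, hTBLC over primed (x axis), by isotype (y axis, with the number of distinct summit pairs), for isotypes with at least 5. Points are genes, red bars are medians with genes that share summits counted once, and the grey band spans 1.5-fold either way. Medians run from −0.41 for cysteine to 0.52 for phenylalanine, and the genes of most isotypes spread over a wider range.

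Genes of 1 isotype could differ widely in ratio. Median log2 ratios ran from −0.41 for cysteine (11 summit pairs, interval −1.06 to 0.24) to 0.52 for phenylalanine (7 pairs, −1.20 to 0.78). For serine the median was −0.32 (23 pairs, −0.67 to 0.13), with 7 pairs at most 1/1.5 and 3 at least 1.5. All of these intervals included 0. Serine also shows the spread between anticodons, since the 8 GCT genes had a median of −0.43 and the 4 TGA genes 0.15, with all 4 above 0. The medians of asparagine, histidine, isoleucine and methionine, between −0.10 and −0.01, change sign without scaling.

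Copies of 1 family also differed widely. The 9 genes of TRH-GTG1 had primed pileups from 9 to 147 and log2 ratios from −0.85 to 2.16. Phenylalanine shows it too: TRF-GAA1-5, whose window is printed above, had 133 in primed and 209 in hTBLC (ratio 1.44, 1.15 to 1.80), TRF-GAA1-3 had 98 and 184 (ratio 1.72, 1.34 to 2.22), and TRF-GAA1-6 had 42 and 20 (ratio 0.44, 0.24 to 0.76). TRF-GAA1-1 was open only in primed, with a pileup of 14. TRI-AAT8-1, also printed above, had 47 and 29 (ratio 0.56, 0.34 to 0.92) with its hTBLC summit inside the gene and its primed summit 12 bp away. In TRD-GTC2, 7 of 11 copies were open in both and 4 in neither, and in TRE-CTC1 the split was 4 and 3 of 7.

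**Figure D4:**
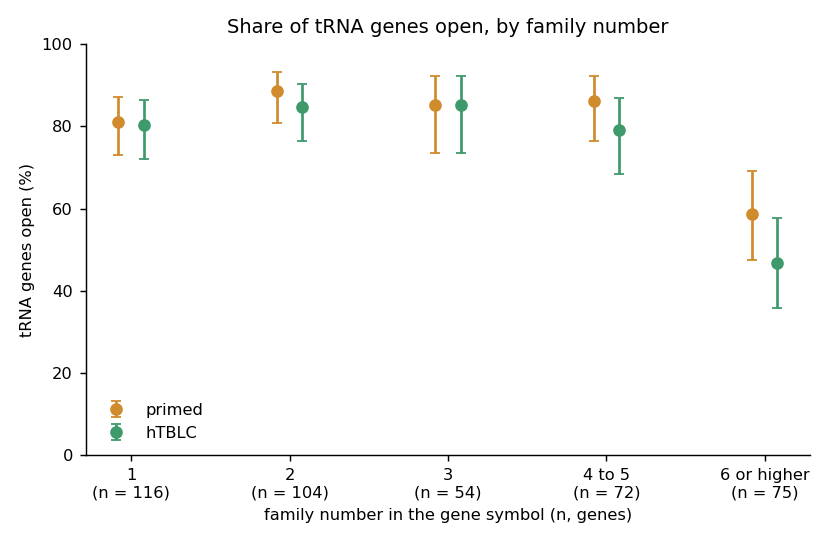
Share of nuclear tRNA genes open (y axis, percent) by the family number in the symbol (x axis, with the number of genes), in primed and hTBLC. Points are shares and bars Wilson 95% intervals, which cover counting error only. Shares lie between 79.2% and 88.5% up to family number 5 and drop to 58.7% in primed and 46.7% in hTBLC at 6 or higher.

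The family number in the symbol went with the open share. Genes of family 1 to 5 were open in 81.0% to 88.5% of cases in primed and 79.2% to 85.2% in hTBLC, without a steady order. Of the 75 genes of family 6 or higher, 44 were open in primed (58.7%, 47.4 to 69.1) and 35 in hTBLC (46.7%, 35.8 to 57.8), 10 of them only in primed and 1 only in hTBLC. Their median pileup was 38 in primed and 39 in hTBLC, against 60 and 60.5 for family 1. Many of these genes are the cysteine and alanine genes already described. Pseudogenes of tRNA genes, which were not members, were open less often again, at 18 of 87 in primed (20.7%) and 12 in hTBLC (13.8%).

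In the genome, 274 of the 429 genes lay in 15 clusters, formed by chaining genes with gaps of at most 100 kb into groups of at least 5. Inside clusters 74.5% of genes were open in primed and 70.4% in hTBLC, and outside them 88.4% and 83.2%. The share was higher near protein-coding genes: of 55 tRNA genes within 1 kb of an end of a protein-coding gene 52 were open in both libraries (94.5%), against 264 of 374 further away (70.6%). Regions at those 55 genes cannot be told apart from regions of the protein-coding gene.

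**Figure D5:**
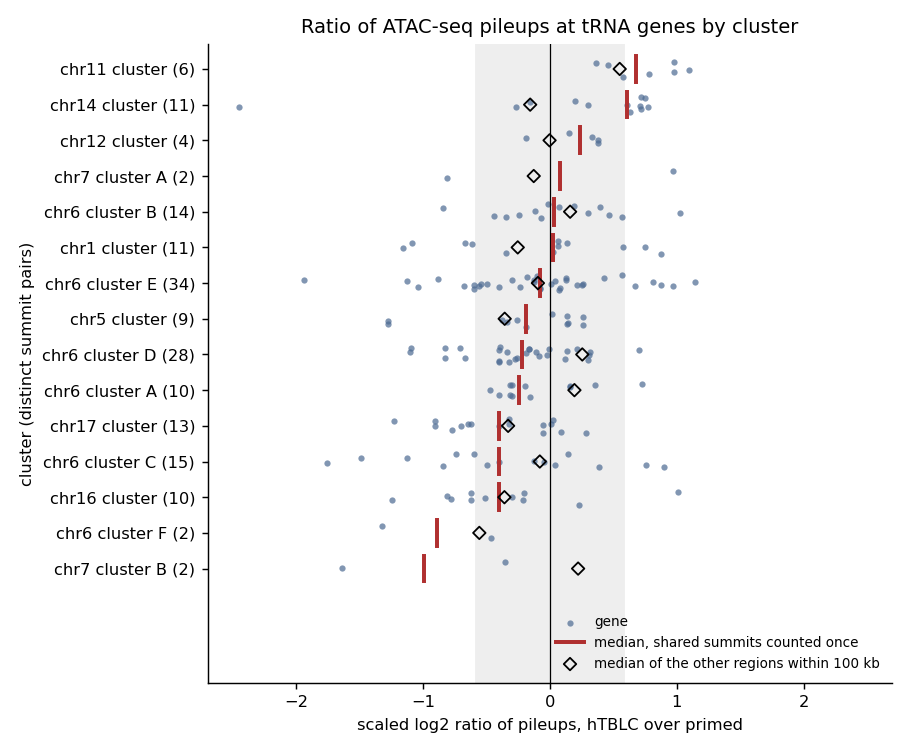
Scaled log2 ratio of pileups, hTBLC over primed (x axis), for the tRNA genes of each of the 15 clusters (y axis, with the number of distinct summit pairs). Points are genes, red bars medians with genes that share summits counted once, open diamonds the median of other regions within 100 kb, and the grey band 1.5-fold either way. All points of the chr11 cluster lie above 0, and so does its diamond at 0.55.

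The highest cluster median was that of the chr11 cluster (59550629 to 59566452), 8 genes over 15.8 kb for valine, phenylalanine, lysine, leucine and arginine. Of these 7 were open in both libraries and 1, TRL-TAA3-1, in neither. All 6 distinct summit pairs were above 0, with a median log2 ratio of 0.68 (0.36 to 1.10). TRV-TAC1-1 and TRV-TAC2-1 share a summit with 120 in primed and 258 in hTBLC (ratio 1.97, 1.58 to 2.46). TRK-TTT5-1 had 44 and 103, TRF-GAA1-3 98 and 184, TRF-GAA2-1 98 and 160, TRK-TTT3-4 69 and 97, and TRR-TCT3-2 38 and 57. The 7 other regions within 100 kb had a median of 0.55, so the neighbourhood was shifted in the same direction, whereas all regions of chromosome 11 had −0.13.

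The chr14 cluster (20609336 to 20684087), 14 genes for tyrosine, proline, threonine and leucine, had a median of 0.61 (−0.27 to 0.75) over 11 summit pairs, 8 of them above 0. Here the 11 other regions within 100 kb had a median of −0.16. The higher genes were spread over the cluster, from TRL-AAG2-3 (48 in primed, 88 in hTBLC) to TRP-TGG1-1 (52 and 97) and TRY-GTA5-5 (56 and 95). The cluster also holds TRY-GTA4-1, the gene with the lowest ratio, while of the tyrosine genes around it TRY-GTA5-3 (51 and 50) and TRY-GTA5-4 (54 and 49) were near equal and TRY-GTA7-1 was open in neither. With the summits of both libraries held to within 150 bp of each other, the cluster median was 0.42. TRP-AGG2-6 and TRT-TGT3-1, with 74 and 133, share summits 321 bp apart.

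Of the clusters with at least 5 summit pairs, the lowest medians were those of the chr16 cluster (−0.40, 10 pairs), the chr17 cluster (−0.40, 13 pairs) and chr6 cluster C (−0.40, 15 pairs), each with an interval that included 0. In the chr16 cluster 2 of 10 pairs were above 0, one of them TRK-CTT3-1, which is among the highest ratios of all. In the chr17 cluster all 18 genes were open in primed and 17 in hTBLC, and TRR-TCT2-1 (60 and 28) and the shared summit of TRS-AGA2-6 and TRI-AAT4-1 (55 and 32) had the lowest ratios. The other regions within 100 kb had medians of −0.36 at the chr16 and −0.33 at the chr17 cluster, near those of the tRNA genes, but −0.08 at chr6 cluster C.

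Chromosome 6 holds 6 of the 15 clusters, named A to F from lower to higher coordinates. Cluster D, 33 genes led by 9 for serine, was the only cluster of at least 10 genes whose interval excluded 0, with a median of −0.22 (−0.40 to −0.03) over 28 pairs, 7 of them above 0. The other regions within 100 kb there had a median of 0.25. Without scaling the tRNA median of cluster D was −0.09 and its interval, −0.27 to 0.10, included 0. Cluster A, with 3 initiator methionine genes among 13, had a median of −0.25 (10 pairs) and other regions 0.19, and all of its genes were open in hTBLC and 12 in primed. Cluster E, with 43 genes the largest, had 35 genes open in both and 4 only in primed, and its median of −0.08 changes sign without scaling. In cluster F 2 of 6 genes were open in both and 3 in neither.

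Closed genes lay together. In the chr1 cluster 17 of 32 genes were open in neither, all of them in a stretch of 21 genes over 29.7 kb (161441533 to 161471205). That stretch repeats a unit of glutamate, glycine, aspartate and leucine genes at intervals of 7360 to 7431 bp, and 2 of its genes, TRE-CTC1-3 and TRL-CAG1-3, were open in both with weak signal (no primed summit and 8 in hTBLC, and 21 and 15). The 11 genes on either side were all open in both. In chr6 cluster B, 16 of 18 genes from 26673362 to 26828299 were open in neither, the exceptions being TRM-CAT4-2 (32 and 43) and TRI-AAT6-1 (41 and 33), whereas 12 of the 13 genes before them were open in both. These stretches were chosen after their values were seen. In tandem copies reads may fit several places, and the effect of their placement on these closed stretches was not tested.

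On chromosome 7, clusters A and B hold 18 of the 29 cysteine genes and 1 serine gene. In cluster B 10 of 13 genes were open in neither, TRC-GCA12-1 was open only in primed (pileup 11), and TRC-GCA9-3 (111 in primed, 39 in hTBLC) and TRC-GCA17-1 (69 and 59) were open in both. In cluster A, TRC-GCA13-1 (124) and TRC-GCA9-2 (16) were open only in primed, and TRC-GCA11-1 had 162 in primed and 101 in hTBLC (ratio 0.57, 0.44 to 0.74), while TRC-GCA1-1 had 7 and 15. The 25 other regions within 100 kb of cluster B had a median log2 ratio of 0.22 and the 11 of cluster A −0.13. Outside chromosome 7, the cysteine genes with a primed pileup of at least 40 were TRC-GCA2-4 (84 and 88), TRC-GCA2-3 (54 and 49) and TRC-GCA4-1 (45 and 58) on chromosome 17, and TRC-GCA8-1 on chromosome 14 (42 and 22, ratio 0.48, 0.27 to 0.82). Of these 4 genes, only TRC-GCA8-1 had an interval below 1.

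By the same window, tRNA genes were open more often than snRNA, miRNA, snoRNA and rRNA genes. In primed 41.6% of 149 snRNA, 26.2% of 1911 miRNA, 10.5% of 1190 snoRNA and 37.9% of 29 rRNA genes were open, and in hTBLC 37.6%, 23.8%, 10.2% and 37.9%. Of 39642 protein-coding gene ends, which count both ends of each gene, 46.5% were open in primed and 45.6% in hTBLC. Counted per gene and with a window of 1 kb, 79.1% of 19821 protein-coding genes had a region at an end in both libraries. The 10 genes for vault RNA, Y RNA and the RNAs of RNase P and RNase MRP, several of which are transcribed by RNA polymerase III, were open about as often as tRNA genes, 7 of 10 in primed and 8 of 10 in hTBLC. The share of open genes found in 1 list only was 7.33% in primed and 1.86% in hTBLC for tRNA genes, against 9.66% and 7.85% for protein-coding gene ends, whose median log2 ratio was 0.01. Small nuclear RNA genes, many of which have their own kind of promoter, had a median of 0.47 over 52 summit pairs and 42.3% at 1.5 or more, so they stood further toward hTBLC than tRNA genes (13.3% over 286 pairs).

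The genes that make and charge tRNA were open throughout. Of 25 genes for RNA polymerase III, its factors TFIIIB and TFIIIC, its repressor MAF1 and the RNA 3′ end binding protein SSB, all had a region within 1 kb of a gene end in both libraries, with a median ratio of 1.02 over 24 genes. Of all 19821 protein-coding genes 79.1% had such a region in both, and their median ratio was 1.02 too. POLR3C, a polymerase subunit, had 83 in primed and 137 in hTBLC (ratio 1.51, 1.14 to 2.01), and POLR3A, the largest catalytic subunit, 98 and 67 (ratio 0.63, 0.45 to 0.86). All 37 genes for processing, export and charging were also open in both, with a median ratio of 1.01. Past 1.5-fold were 2 of the 24 polymerase genes, 1 each way, and 3 of the 37 others each way, where 9.46% of all protein-coding genes were higher and 12.5% lower. Among the 37 were TRNT1, which adds the CCA end (133 and 269, ratio 1.85), TARS1, the threonyl-tRNA synthetase (182 and 310, ratio 1.56), and TSEN15 of the splicing endonuclease (81 and 137, ratio 1.55) on 1 side. On the other side were, among others, RPP25 of RNase P (92 and 51, ratio 0.51) and the endonuclease subunit TSEN54 (100 and 72, ratio 0.66).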

How the data were processed

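ATAC-seq peak lists of 1 primed and 1 hTBLC library of WIBR3 cells, grouped by sample title, were used. The submitters' processing notes name Bowtie2, Picard, MACS2 and hg38, without versions or settings. Peaks were called per library, since the authors deposited 1 list per sample. The authors deposited for each peak a fold enrichment ratio over local background, a −log10 p-value, a −log10 q-value and a score, which was not used. From the authors' fold and −log10 p, a whole pileup was found for each peak through the Poisson upper tail (within 0.001 in −log10 p), which succeeded for 99.998% of the hTBLC peaks and all but 1 of the primed peaks. Simulated pileups were recovered for 100% of 20000 peaks, and 96.5% of 2000 simulated ratio intervals held the true ratio.

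Gene positions came from a RefSeq table (GRCh38.p14), which shares the primary coordinates of hg38. From it 22 mitochondrial tRNA genes and 14 tRNA entries with scaffold or patch coordinates were left out. Named tRNA genes are those open in 1 library (the 10 of highest pileup where there are more), the 8 highest and 8 lowest ratios whose interval excludes 1, the 5 highest pileups per library and the initiator and selenocysteine genes. Of the lists, genes past 1.5-fold are named, except that 1 is not reported here. Other genes were named after their values were seen. Members and lists were chosen with earlier results of these data known. Alternatives for window, threshold, scaling, summit choice, cluster gap and fold are given at the end. Summits within 150 bp and leaving out provisional symbols were added after the data were seen. Python 3.11.15, pandas 2.3.3, numpy 2.4.6, scipy 1.17.1 and matplotlib 3.10.9 were used.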

Additional observations from a re-analysis of the deposited data

How the results depend on the processing

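Of 292 alternative values, 270 stayed within 1.5 times the main count, or within the stated interval for medians, and 22 moved. The median log2 ratio at tRNA genes, −0.03, became 0.10 without scaling and 0.10 scaled to all matched regions, and lay between −0.07 and 0.03 in the others. The isoleucine median, −0.05, became 0.08 under both scalings. Among the 50000 strongest regions of each list, 182 genes were open in primed and 203 in hTBLC, and 44 only in hTBLC, a reversal of the order of the libraries. Genes only in hTBLC numbered 12 when a −log10 q of 5 was required and 19 when 10 was. Genes higher in hTBLC, 40, became 24 at a −log10 q of 10 or more, 26 with fold enrichment in place of pileup, 9 at 2-fold, 12 among the 50000 strongest, 4 with a window of 0 bp and 22 with 100 bp. Genes lower in hTBLC, 52, became 27, 29, 20, 12 and 10 under the first 5 of these. Open genes of chr7 cluster A in hTBLC became 1 with a window of 0 bp, and of cluster B in primed 5 with 1000 bp. Fewer regions or a stricter fold lower such counts by construction; for fold enrichment the cause was not tested. No symbol marks a nuclear copy of a mitochondrial tRNA gene, so leaving these out gave no value. No paired analysis was possible because each group has 1 library. Depth is known only through the background, and a pileup of 19 has a counting interval of 11.4 to 29.7.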
